A study of Mus musculus with 48 samples.

Results

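The response of IL-4/IL-13-polarized, p53 knockout, bone marrow-derived macrophages to the compound AP-3-84 was measured in 6 of the series' 48 libraries, 3 treated and 3 vehicle. All genes that passed the filter on low counts were tested, 11779 of the 51789 gene IDs in the table. The cells were grown from bone marrow hematopoietic stem cells of B6 p53 KO mice (strain field, C57BL/6) for 6 days in 10 ng/mL M-CSF, then given 10 ng/mL of IL-4 plus 10 ng/mL of IL-13 over 24 h, the M2 condition. They then received 10 µM AP-3-84 or the matching amount of its solvent DMSO for 4 h. These libraries are called KO_M2 below, with vehicle 1, 2 and 3 and treated 1, 2 and 3 for the replicate numbers in the labels. For comparison, WT_M2 is the same culture and treatment from wild-type B6 mice, and KO_M0 is p53 KO macrophages grown in M-CSF without IL-4, IL-13 or other polarizing agents, each with 3 treated and 3 vehicle libraries. The p53 loss is therefore shared by the treated and the vehicle libraries of the main comparison. The labels state neither the deleted part of Trp53 nor the number of animals, nor whether replicates came from separate cultures, so p-values measure only the spread between these libraries, which may be technical. The compound is known here only by its code name. From 100 ng of DNase-treated RNA, QuantSeq libraries were made, which read the 3′ end of transcripts, and were sequenced with single reads of 75 bases.

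IL-4 and IL-13 act through the shared IL-4 receptor alpha chain and STAT6, and drive a macrophage state marked in mice by arginase 1, the resistin-like protein RELMα (gene Retnla), the chitinase-like protein Ym1 (gene Chil3) and the mannose receptor (gene Mrc1). Cells exposed to proteotoxic or oxidative stress switch on defined gene sets: heat shock factor 1 induces the HSP70 chaperones Hspa1a and Hspa1b, and NRF2 induces enzymes of glutathione and thioredoxin metabolism. The transcription factor p53, absent by label from these cells, controls cell cycle arrest and death genes such as Cdkn1a, Mdm2 and Phlda3.

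Each library held from 3203368 to 4195908 counts over 13905 to 14705 genes with at least 1 count, and 10.1% to 13.8% of counts fell in the top 10 genes. Levels are given as CPM (counts scaled to library size by the TMM method), which compare 1 gene between libraries but not different genes. The labels' genotype field calls all these macrophages wild-type, while titles, descriptions and the design text say KO, so p53 targets were read first. Cdkn1a, the p21 cell cycle inhibitor, stood at 55.5, 93.2 and 142 CPM in vehicle 1 to 3 against 777 to 1115 CPM in the 3 WT_M2 vehicle libraries (log2 difference −3.21, edgeR adjusted p = 5.66e-08). Phlda3, another direct target, was at 0, 0 and 0.248 CPM against 18.4 to 36.2 CPM (edgeR adjusted p = 6.87e-09), and Mdm2 and Ccng1 were also lower (−2.01 and −1.75). Trp53 itself stood at 2.70 to 7.19 CPM in the 6 KO_M2 libraries and was not called (edgeR adjusted p = 0.407), and a 3′ tag outside the deleted part checks nothing. The macrophage markers Lyz2, Ctss and Csf1r were abundant in all 6, and Arg1 (688 to 2815 CPM), Chil3 (1381 to 4882 CPM) and Mrc1 (716 to 1410 CPM) marked the IL-4/IL-13 state, with Nos2 at 1.58 to 7.33 CPM. Markers of B, T or NK and erythroid cells summed to at most 14.9, 0.676 and 0.275 CPM.

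Vehicle 1 stood apart from the other vehicle libraries. Across genes, its log2 levels correlated with those of treated 1 and treated 2 at r = 0.973 and 0.974, and with those of vehicle 2 and vehicle 3 at 0.948 and 0.925 (a description over genes, which are not independent). Of 8150 genes with a mean of at least 3 on the log2 CPM scale, 232 were at least 2-fold higher and 352 at least 2-fold lower in vehicle 1 than in the mean of the other vehicle libraries. Vehicle 3 also departed from its group, with 211 higher and 170 lower, against 36 and 80 for vehicle 2. Among treated libraries the numbers were 157 and 93 for treated 1, 101 and 125 for treated 2, and 76 and 73 for treated 3. Treated 1 correlated with vehicle 2 at 0.96, and with treated 2 and treated 3 at 0.952 and 0.957. Whether libraries were exchanged was not tested. Cdkn1a stood at 55.5 to 180 CPM in the 6 KO_M2 libraries and 777 to 1119 CPM in the 6 WT_M2 libraries. Hspa1a stood at 0.992 to 5.04 CPM in KO_M2 vehicle and 27.4 to 34.9 CPM in KO_M2 treated libraries. Cdkn1a separates the genotypes only, and Hspa1a is a gene called on these same labels, so neither can test an exchange within KO_M2. Counts, list medians and fold changes in KO_M2 are given below with all 6 libraries and without vehicle 1.

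With all 6 libraries, AP-3-84 raised 4 genes and lowered 2. The 4 that rose were the HSP70 genes Hspa1a and Hspa1b, Tiparp (TCDD-inducible poly(ADP-ribose) polymerase, a target and repressor of the aryl hydrocarbon receptor) and March1 (a membrane ubiquitin ligase that removes MHC class II and CD86 from the cell surface). The 2 that fell were Dab2 (disabled-2, a clathrin adaptor of endocytosis) and Ctnnd2 (delta-catenin, an armadillo protein of cell junctions). These 6 are 0.0509% of the genes tested (edgeR quasi-likelihood test, Benjamini-Hochberg adjusted p under 0.05, all genes), 0.0340% higher and 0.0170% lower. At an unadjusted p under 0.05 there were 1454 genes.

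**Figure D1:**
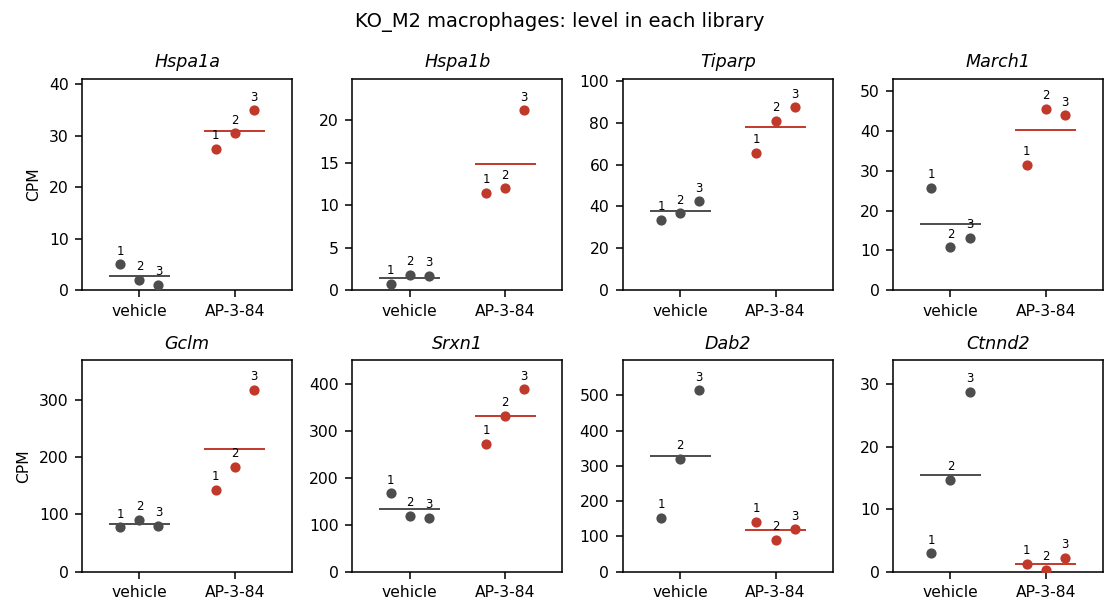
Level in CPM of 8 genes in the 3 vehicle (grey) and 3 AP-3-84 (red) KO_M2 libraries, with the replicate number over each point and a line at the group mean. For Hspa1a the treated libraries lie between 27.4 and 34.9 CPM and the vehicle libraries between 0.992 and 5.04 CPM, while for Dab2 vehicle 1 (153 CPM) lies next to the treated libraries.

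Hspa1a encodes an inducible HSP70 chaperone and lies at chromosome 17:34969190-34972156 on the minus strand (GENCODE M21, GRCm38). It stood at 5.04, 2.03 and 0.992 CPM in vehicle 1 to 3 and at 27.4, 30.4 and 34.9 CPM in treated 1 to 3. The groups did not overlap, and the mean went from 2.69 ± 2.10 to 30.9 ± 3.76 CPM (SD, n = 3). The log2 fold change was 3.53 (SE 0.504, edgeR adjusted p = 0.00116) and 4.31 without vehicle 1 (edgeR adjusted p = 0.000155).

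Hspa1b, its neighbour at chromosome 17:34956436-34959238, encodes a nearly identical protein. It stood at 0.796, 1.80 and 1.74 CPM in vehicle and at 11.5, 12.0 and 21.1 CPM in treated libraries. Vehicle 1 was here the lowest of the 6, and the log2 fold change was 3.32 (SE 0.607, edgeR adjusted p = 0.0348) with all libraries and 3.05 (edgeR adjusted p = 0.0121) without it. The last 500 bases of the annotated Hspa1a transcript share 0 words of 30 bases with any other gene, and those of Hspa1b share 0 with Hspa1a, so 3′ reads from those ends can be told apart although the rest of each gene is nearly the same.

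The promoters of the pair are shown because both genes rose together and the windows are almost the same sequence. Both are RefSeq windows of 300 bases (GRCm38.p6, minus strand), 250 before the start and 50 after it, and they differ at 4 of 300 bases, which are in capitals. Hspa1a lies at chr17:34972107-34972406 and Hspa1b at chr17:34959189-34959488.
Hspa1a: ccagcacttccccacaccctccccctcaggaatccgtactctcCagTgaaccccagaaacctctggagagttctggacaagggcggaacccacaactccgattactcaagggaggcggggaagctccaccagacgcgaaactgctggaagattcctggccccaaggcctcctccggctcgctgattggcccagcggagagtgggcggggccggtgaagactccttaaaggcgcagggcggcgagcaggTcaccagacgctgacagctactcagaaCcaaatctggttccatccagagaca
Hspa1b: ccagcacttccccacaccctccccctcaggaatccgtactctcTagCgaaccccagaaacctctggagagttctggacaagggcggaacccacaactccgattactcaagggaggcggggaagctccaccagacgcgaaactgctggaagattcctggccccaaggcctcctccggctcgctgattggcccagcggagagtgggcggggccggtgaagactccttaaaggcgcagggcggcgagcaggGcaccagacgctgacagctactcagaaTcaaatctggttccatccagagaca
The strict heat shock element, GAA and TTC and GAA with any 2 bases between neighbours, searched on both strands, has 0 matches in either window and is in 0.603% of all 32851 promoters of the table. It is in the promoters of 4 of the 16 chaperone genes with an entry, Hsph1, Chordc1, Hspd1 and Hspe1, none of which was called.

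The change in chaperones did not extend over the list. Of 20 heat shock and chaperone genes tested, 2 were called higher with all libraries, and the median log2 fold change was 0.04 beside 0 for all genes. Hspa8, the constitutive HSP70, stood at 1089 to 1248 CPM in vehicle and 1161 to 1193 CPM in treated libraries. Dnajb1, the HSP40 partner, stood at 31.7 to 42.4 and 35.9 to 49.7 CPM, and Hsph1 at 63.5 to 83.1 and 59.2 to 81.0 CPM, with overlapping groups. Hspb1, the small chaperone HSP27, stood at 3.98, 7.66 and 6.45 CPM in vehicle and at 15.0, 12.0 and 16.5 CPM in treated libraries, and the groups did not overlap, but it was not called (edgeR adjusted p = 0.393, and 0.414 without vehicle 1). Ahsa1, an activator of HSP90, fell without vehicle 1 (−0.87, edgeR adjusted p = 0.0335, and −0.60, adjusted p = 0.305, with it) from 211 and 268 CPM to 114 to 152 CPM, and vehicle 1 stood at 118 CPM.

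Tiparp rose from 33.7, 36.7 and 42.4 CPM to 65.6, 80.7 and 87.3 CPM, with no overlap and with vehicle 1 the lowest of its group. The log2 fold change was 1.05 (SE 0.208, edgeR adjusted p = 0.0439) and 0.98 without vehicle 1 (edgeR adjusted p = 0.0163). March1 rose from 25.7, 10.8 and 13.2 CPM to 31.5, 45.6 and 43.9 CPM (1.30, edgeR adjusted p = 0.0439), with vehicle 1 closest to the treated libraries, and the fold change was 1.75 (edgeR adjusted p = 0.000261) without it.

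Dab2 fell from 153, 321 and 514 CPM to 141, 90.2 and 120 CPM. Vehicle 1 was 153 CPM and treated 1 was 141 CPM, so the gap between the groups is that between these 2 libraries. The log2 fold change was −1.49 (SE 0.285, edgeR adjusted p = 0.0439) and −1.83 (edgeR adjusted p = 6.68e-05) without vehicle 1. Ctnnd2 fell from 2.92, 14.6 and 28.8 CPM to 1.27, 0.272 and 2.20 CPM (−3.60, edgeR adjusted p = 0.0439, and −4.09, adjusted p = 0.000756, without vehicle 1), again with vehicle 1 nearest to the treated libraries. Leaving out vehicle 2 ended all 6 calls, and leaving out vehicle 3, treated 2 or treated 3 each left Hspa1a as the only one. Leaving out treated 1 kept all 6 and raised the count to 66. A fit on the 6 KO_M2 libraries alone made 0 calls (825 genes at an unadjusted p under 0.05), against 71 calls by DESeq2 over all 36 bone marrow-derived libraries and 388 by limma voom with sample weights. The DESeq2 calls did not include Ctnnd2, and the voom calls did not include Hspa1b, with or without vehicle 1. Tiparp was not called with all libraries when counts were scaled by library totals.

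NRF2 target genes stood higher in treated libraries, and in this list the libraries separated even with vehicle 1 included. All 21 NRF2 targets tested had a positive log2 fold change (median 0.66, and 0.75 without vehicle 1), and for 14 of 21 each treated library was above every vehicle library, where 6.00% of all genes tested were so placed. With all libraries edgeR called 0 of the 21, 14 had an unadjusted p under 0.05, and DESeq2 called 6. Without vehicle 1, 7 rose: Gclm, Srxn1, Txnrd1, Slc7a11, Blvrb, Abcc1 and Pgd. That comparison called 2.00% of all genes higher.

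Gclm encodes the modifier subunit of glutamate-cysteine ligase, which limits glutathione synthesis. It stood at 77.0, 90.3 and 80.4 CPM in vehicle and at 142, 183 and 317 CPM in treated libraries, with vehicle 1 the lowest of all. The log2 fold change was 1.37 (SE 0.284, edgeR adjusted p = 0.0586) and 1.32 (SE 0.333, edgeR adjusted p = 0.0221) without vehicle 1. Srxn1 encodes sulfiredoxin, which restores oxidized peroxiredoxins, and it stood at 166, 119 and 115 CPM against 272, 332 and 388 CPM. Its log2 fold change was 1.31 (edgeR adjusted p = 0.110) and 1.498 (edgeR adjusted p = 0.0158) without vehicle 1.

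Txnrd1, thioredoxin reductase, stood at 139, 160 and 109 CPM against 204, 222 and 477 CPM, and treated 3 was the highest (1.16, edgeR adjusted p = 0.0340 without vehicle 1, and 1.15, adjusted p = 0.110, with it). Slc7a11, the cystine importer, stood at 96.3, 70.3 and 27.3 CPM against 124, 182 and 221 CPM (1.84, edgeR adjusted p = 0.0398, and 1.44, adjusted p = 0.187, with vehicle 1). The groups were apart for both genes. Blvrb, biliverdin reductase B, stood at 424, 236 and 229 CPM against 436, 625 and 449 CPM, so its separation rests on vehicle 1 lying just under treated 1 (1.11, edgeR adjusted p = 4.63e-05 without vehicle 1, and 0.76, adjusted p = 0.0586, with it). Abcc1 (0.97, and 0.93 with vehicle 1), an exporter of glutathione conjugates, and Pgd (0.77, and 0.64 with vehicle 1), of the pentose phosphate pathway, rose by less. Hmox1, heme oxygenase 1, stood at 44.6 to 68.2 CPM and 82.5 to 95.8 CPM with no overlap but was not called (0.58, edgeR adjusted p = 0.447, and 0.551 without vehicle 1), and Nqo1 stood at 6.10 to 8.93 and 16.8 to 19.6 CPM (edgeR adjusted p = 0.271). The ferritin genes Fth1 and Ftl1 overlapped between groups.

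The promoters of Gclm and Srxn1 are shown because both genes are called targets with a single promoter entry that holds the antioxidant response element, the site through which NRF2 acts. The letters searched were TGACNNNGC on both strands, and the match is in capitals. Gclm lies at chr3:122245307-122245606 and Srxn1 at chr2:152105274-152105573 (RefSeq, GRCm38.p6, plus strand), and in both the match is on the minus strand.
Gclm: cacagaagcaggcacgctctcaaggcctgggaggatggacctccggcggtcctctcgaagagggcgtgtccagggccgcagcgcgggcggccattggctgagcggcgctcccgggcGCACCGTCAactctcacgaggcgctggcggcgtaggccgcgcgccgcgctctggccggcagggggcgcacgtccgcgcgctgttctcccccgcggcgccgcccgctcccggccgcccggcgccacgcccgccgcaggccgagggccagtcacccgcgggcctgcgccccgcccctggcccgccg
Srxn1: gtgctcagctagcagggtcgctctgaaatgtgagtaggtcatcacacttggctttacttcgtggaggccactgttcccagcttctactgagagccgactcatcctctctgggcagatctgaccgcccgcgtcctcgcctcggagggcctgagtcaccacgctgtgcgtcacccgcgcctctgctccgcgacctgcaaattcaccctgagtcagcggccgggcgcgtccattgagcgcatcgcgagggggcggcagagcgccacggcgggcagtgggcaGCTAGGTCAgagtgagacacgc
The motif was found for 7 of the 16 NRF2 targets with an entry in the table and in 12.4% of all promoters, so a match in 1 window is frequent by itself.

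Without vehicle 1, the number of called genes went from 6 to 562, with 242 higher and 320 lower, which is 4.65% of 12078 genes tested (2.00% higher and 2.65% lower). These shares are the base for each list count without vehicle 1 given below. The 562 hold all 6 genes called with every library. For most of them vehicle 1 lay with the treated libraries: on a scale where 0 is the mean log2 level of vehicle 2 and 3 and 1 is that of the treated libraries, the median position of vehicle 1 was 0.90. It was nearer the treated mean for 517 genes and within the range of the treated libraries for 351. For the other 45 genes, 26 higher and 19 lower, vehicle 1 lay nearer the other vehicle libraries. For 43 of these the treated libraries were apart from all 3 vehicle libraries, which follows largely from how the 45 were chosen. Hspa1a, Hspa1b, Tiparp, Gclm, Srxn1, Txnrd1, Abcc1, Pgd, Rel, Ier3, Malt1 and Ahrr are among the 45. A like position was taken for each KO_M2 library, on the 500 genes of lowest p in the fit without it. Here 1 is the mean of the opposite group. The median was 0.91 for vehicle 1 and 0.65 for treated 1, with 460 and 326 of the 500 past the midpoint. For treated 2, treated 3, vehicle 2 and vehicle 3 the median was 0.33, 0.24, 0.09 and −0.13. A gene called only without vehicle 1 thus rests on vehicle 2 and 3 as the reference. The calls also leaned on vehicle 3: with vehicle 1 and vehicle 3 both left out, 22 genes were called, and with vehicle 1 and treated 2 left out, 86.

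**Figure D2:**
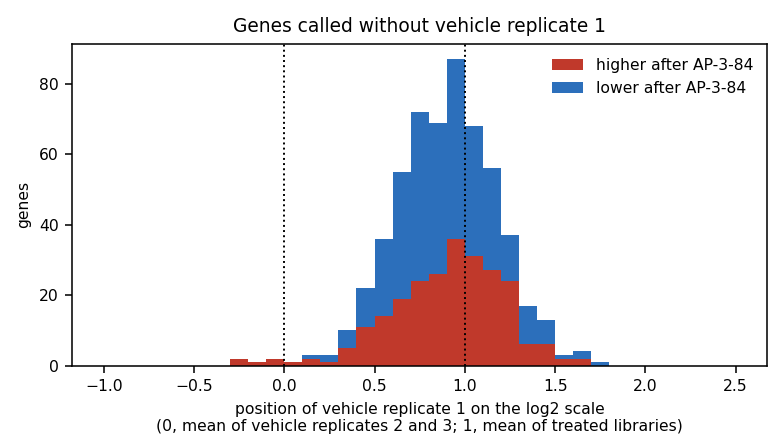
Number of genes by the position of vehicle 1 among the 562 called without it, for genes higher (red) and lower (blue) after AP-3-84, with 0 at the mean of vehicle 2 and 3 and 1 at the treated mean on the log2 scale. The bulk sits near 1, with a median of 0.90, and a small number near 0.

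**Figure D3:**
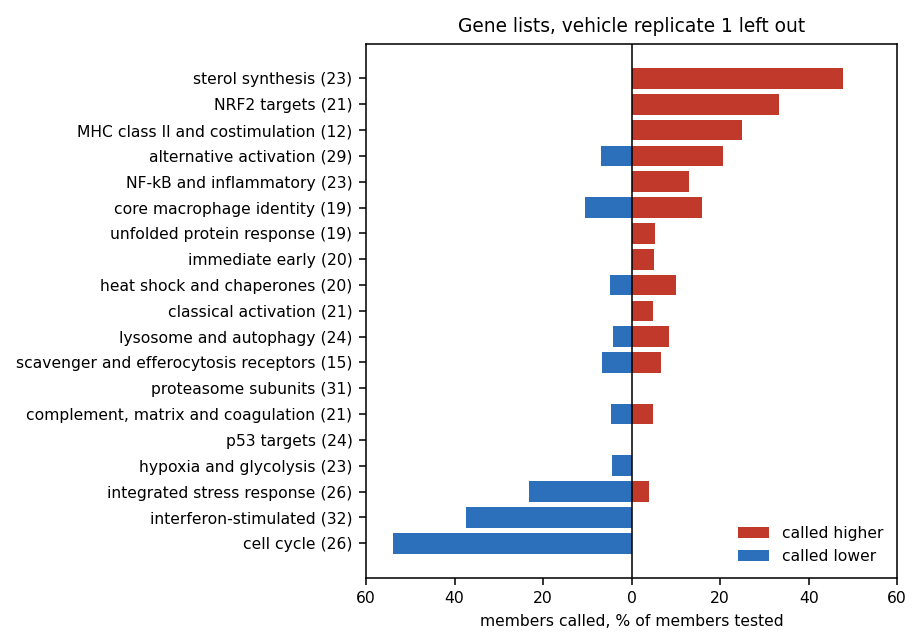
Share of each gene list called higher (red, to the right) or lower (blue, to the left) after AP-3-84 when vehicle 1 is left out, in percent of the members tested, whose number is in parentheses. Sterol synthesis (11 of 23) has the longest bar to the right and cell cycle (14 of 26) the longest to the left.

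Genes of cholesterol synthesis were higher in treated libraries than in vehicle 2 and 3. Of 23 sterol synthesis genes tested, 11 rose and 0 fell without vehicle 1 (median 1.27 beside 0.01 for all genes), and 0 were called by edgeR with all libraries (median 0.77), where 16 had an unadjusted p under 0.05 and DESeq2 called 1. Among the 11 were Hmgcs1, Mvd, Fdps, Fdft1, Cyp51, Msmo1 and Sc5d of the pathway itself, Insig1, which holds the SREBP regulators in the endoplasmic reticulum, and Stard4, a cholesterol carrier. Cyp51, lanosterol demethylase, stood at 32.7 and 24.8 CPM in vehicle 2 and 3 and at 61.2, 129 and 130 CPM in treated libraries, and vehicle 1 stood at 79.9 CPM, within the treated range (1.89, edgeR adjusted p = 0.00977, and 1.23, adjusted p = 0.201, with all libraries). Hmgcs1, an early synthase of the pathway, stood at 55.4 and 54.1 CPM against 92.7, 198 and 281 CPM, with vehicle 1 at 164 CPM (1.80, edgeR adjusted p = 0.00465, and 1.06, adjusted p = 0.228, with all libraries). Sc5d, a late enzyme of the pathway, stood at 7.43 and 8.68 CPM against 18.2, 36.7 and 36.8 CPM, with vehicle 1 at 21.2 CPM (1.92, edgeR adjusted p = 0.000958, and 1.31, adjusted p = 0.11, with all libraries). For these 3 genes treated 1 was the lowest treated library and vehicle 1 lay above it. Scd2, a stearoyl-CoA desaturase, was among the largest rises, from 4.28 and 9.42 CPM to 52.2, 89.1 and 48.9 CPM with vehicle 1 at 57.3 CPM (3.21, edgeR adjusted p = 0.00289, and 1.44, adjusted p = 0.326, with all libraries). Abca1, the exporter of cholesterol, stood at 10.4 and 20.3 CPM against 48.4, 94.8 and 56.3 CPM, and vehicle 1 at 80.4 CPM (2.12, edgeR adjusted p = 0.0266, and 0.86, adjusted p = 0.552, with all libraries).

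Among genes of the IL-4/IL-13 state, members moved in both directions. Of 29 alternative activation genes tested, 6 rose and 2 fell without vehicle 1 (median 0.72), and 0 were called with all libraries (median 0.29). Without vehicle 1, 2.00% of all genes tested rose and 2.65% fell. Retnla stood at 455 and 406 CPM in vehicle 2 and 3, at 2664, 7902 and 2569 CPM in treated libraries and at 5858 CPM in vehicle 1. Its log2 fold change was 3.35 without vehicle 1 (SE 0.766, edgeR adjusted p = 0.0158) and 0.97 with it (edgeR adjusted p = 0.658). Fn1, fibronectin, was also high in vehicle 1, with 71.4 and 41.7 CPM against 227, 490 and 242 CPM and vehicle 1 at 419 CPM (2.498, edgeR adjusted p = 0.00289, and 0.85, adjusted p = 0.554, with all libraries). Pdcd1lg2, the PD-1 ligand PD-L2, stood at 12.2 and 11.2 CPM against 38.9, 54.3 and 36 CPM and vehicle 1 at 41.9 CPM (1.88, edgeR adjusted p = 0.0182, and 0.99, adjusted p = 0.353, with all libraries). Ear2, Ccl24 and Egr2 were the other 3 that rose. For Ear2, an eosinophil-associated ribonuclease, 59.2% of the 30-base words at the 3′ end occur in other genes, so its counts are uncertain. Retnla, Ear2 and Ccl24 were called neither by DESeq2 without vehicle 1 nor in a fit on the KO_M2 libraries alone without it. Cdh1, E-cadherin, and Tgm2, transglutaminase 2, fell (−1.69 and −0.99, and −1.39 and −0.79 with all libraries, where neither was called). Arg1 stood at 1102, 2815 and 2340 CPM against 1658, 688 and 1324 CPM, and was not called with or without vehicle 1 (edgeR adjusted p = 0.526 and 0.215). Mrc1 and Chil3 were not called either.

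**Figure D4:**
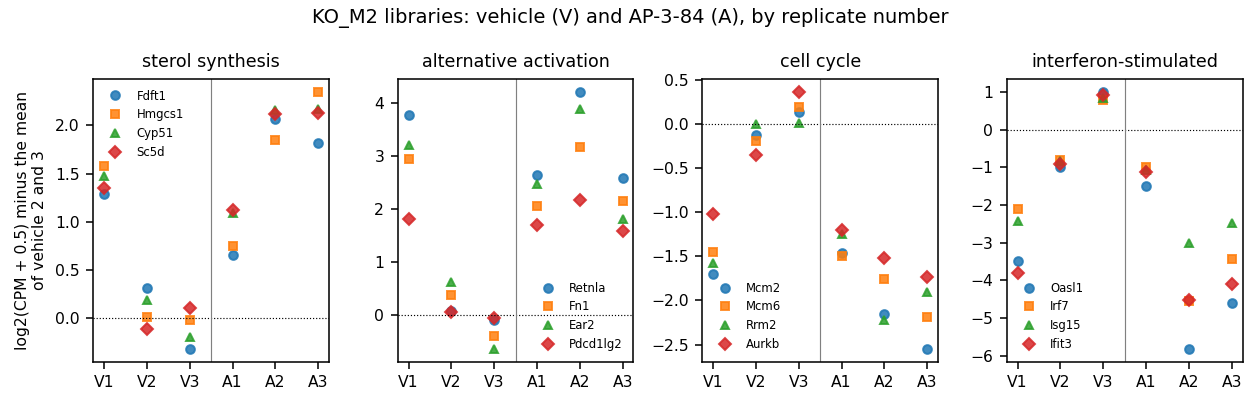
Level of 16 genes of 4 lists in each KO_M2 library, as log2(CPM + 0.5) minus the mean of vehicle 2 and 3, with V for vehicle and A for AP-3-84. In the 4 panels vehicle 1 lies among or next to the treated libraries, for Retnla at 5858 CPM against 2569 to 7902 CPM.

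MHC class II genes followed a like order. Of 12 genes of the list tested, 3 rose without vehicle 1 (March1, H2-DMa and H2-DMb1, median 1.54) and 1 with all libraries (March1, median 0.79). H2-DMa and H2-DMb1 encode the chains of the chaperone that loads peptide onto class II. H2-DMa stood at 84.0 and 53.8 CPM against 174, 271 and 150 CPM, with vehicle 1 at 244 CPM (1.52, edgeR adjusted p = 0.0221, and 0.64, adjusted p = 0.554, with all libraries). For H2-DMb1, at 106 and 89.8 against 241, 348 and 195 CPM with vehicle 1 at 262 CPM (1.41, edgeR adjusted p = 0.00777, and 0.78, adjusted p = 0.305, with all libraries), 35.5% of the 30-base words at the 3′ end also occur in H2-DMb2, at 2.87 to 5.16 CPM in the 6 libraries. The class II chain H2-Aa and the invariant chain Cd74 had the same order of libraries, from 312 to 2219 CPM and from 358 to 1829 CPM over all 6. Neither was called without vehicle 1 (1.89 and 1.57, edgeR adjusted p = 0.153 and 0.186) or with all libraries (0.79 for both, adjusted p = 0.684 and 0.629).

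Of 19 core macrophage genes, 3 rose and 2 fell without vehicle 1 and 0 were called with all libraries. For this list and the lysosome list below, the shares of all genes were 2.00% higher and 2.65% lower without vehicle 1. Ctss, cathepsin S, which trims the invariant chain, stood at 2289 and 1808 CPM in vehicle 2 and 3, at 5283, 6383 and 5437 CPM in treated libraries and at 5720 CPM in vehicle 1 (1.48, edgeR adjusted p = 4.63e-05, and 0.80, adjusted p = 0.185, with all libraries). Lyz2, lysozyme, stood at 5625 and 3091 CPM against 10670, 14980 and 9856 CPM, with vehicle 1 at 13940 CPM (1.44, edgeR adjusted p = 0.00691, and 0.65, adjusted p = 0.446, with all libraries), and 37.2% of its 3′ words occur in Lyz1. Tyrobp (DAP12), a signalling adaptor, also rose (0.77, and 0.40 with all libraries, not called). Fcgr1, the high-affinity IgG receptor, fell from 25 and 103 CPM to 25.2, 5.98 and 3.57 CPM with vehicle 1 at 8.76 CPM (−2.49, edgeR adjusted p = 0.0232, and −2.01, adjusted p = 0.221, with all libraries), so treated 1 lay above vehicle 2. Maf, a macrophage transcription factor, fell from 141 and 454 CPM to 91.4 to 120 CPM with vehicle 1 at 102 CPM (−1.504, edgeR adjusted p = 0.0100, and −1.15, adjusted p = 0.178, with all libraries). The 19 genes summed to 30440, 16000 and 12490 CPM in vehicle 1 to 3 and to 26150, 32170 and 24340 CPM in treated libraries. In bulk samples, fewer cells of a type and less RNA per cell cannot be told apart. Of 24 lysosome and autophagy genes, Gabarapl1 (1.15, and 0.71 with all libraries) and Wipi1 (0.69, and 0.45), both of autophagosome formation, rose and Neu1, a sialidase, fell (−0.62, and −0.49) without vehicle 1. Gabarapl1 stood at 60.1 and 58.3 CPM against 137, 131 and 126 CPM and vehicle 1 at 123 CPM.

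Cell cycle genes were lower in treated libraries than in vehicle 2 and 3. Of 26 tested, 14 fell and 0 rose without vehicle 1 (median −1.27), and 0 were called by edgeR with all libraries (median −1.01), where 20 had an unadjusted p under 0.05 and DESeq2 called 3. The fold change was negative for all 26 in both. Mcm2, a subunit of the replicative helicase, stood at 49.1 and 58.8 CPM in vehicle 2 and 3, at 19.1, 11.7 and 8.79 CPM in treated libraries and at 16.2 CPM in vehicle 1 (−2.04, edgeR adjusted p = 0.00301, and −1.66, adjusted p = 0.112, with all libraries). Mcm3, Mcm5, Mcm6 and Mcm7 of the same complex fell with it. Rrm2, the ribonucleotide reductase subunit, stood at 98.0 and 98.7 CPM against 41.1, 20.6 and 25.8 CPM with vehicle 1 at 32.6 CPM (−1.76, edgeR adjusted p = 0.0316, and −1.40, adjusted p = 0.222, with all libraries). The mitotic kinases Aurka, Aurkb, Cdk1 and Bub1 were also called lower. Outside the list, Ccnd1, cyclin D1, fell from 138 and 242 CPM to 59.9, 37.2 and 39.0 CPM with vehicle 1 at 54.7 CPM (−2.07, edgeR adjusted p = 0.0401, and −1.68, adjusted p = 0.223, with all libraries), and 34.1% of its 3′ words lie antisense to another gene. For Mcm2, Rrm2 and Ccnd1, vehicle 1 lay under treated 1.

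Interferon-stimulated genes were lower in treated libraries than in vehicle 2 and 3, with vehicle 3 the highest of all. Of 32 tested, 12 fell and 0 rose without vehicle 1 (median −1.47), and 0 were called by edgeR or DESeq2 with all libraries (median −1.04), where 19 had an unadjusted p under 0.05. Isg15, the ubiquitin-like modifier, stood at 73.9 and 237 CPM against 62.8, 16.0 and 23.3 CPM with vehicle 1 at 24.4 CPM (−2.20, edgeR adjusted p = 0.0404, and −1.73, adjusted p = 0.265, with all libraries). Irf7, the factor that amplifies interferon production, stood at 64.4 and 195 CPM against 56.4, 4.35 and 9.88 CPM with vehicle 1 at 25.7 CPM (−2.49, edgeR adjusted p = 0.0393, and −2.04, adjusted p = 0.228, with all libraries). Oasl1, which restrains Irf7 translation, stood at 28.8 and 117 CPM against 20.4, 0.543 and 1.92 CPM with vehicle 1 at 4.78 CPM (−3.32, edgeR adjusted p = 0.0269, and −2.78, adjusted p = 0.216, with all libraries). Treated 1 lay above vehicle 1 in these 3 genes, and for 0 of the 32 did the treated libraries all lie under every vehicle library, where 5.38% of all genes tested did. The calls of Isg15, Irf7, Oasl1, Ifit3 and Ifi44 were lost when vehicle 3, treated 2 or treated 3 was left out beside vehicle 1.

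The Isg15 promoter is shown as an example of a called gene with overlapping copies of the interferon-stimulated response element, through which type I interferon acts. GAAA followed after any 2 bases by GAAA was searched on both strands, and the 3 overlapping matches are in capitals (RefSeq, GRCm38.p6, chr4:156200769-156201068, minus strand).
Isg15: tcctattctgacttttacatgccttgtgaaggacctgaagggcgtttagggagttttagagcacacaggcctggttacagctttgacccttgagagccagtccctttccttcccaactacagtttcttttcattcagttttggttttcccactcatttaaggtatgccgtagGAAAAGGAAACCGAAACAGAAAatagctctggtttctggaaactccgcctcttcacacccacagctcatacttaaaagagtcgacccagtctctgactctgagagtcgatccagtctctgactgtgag
Of the 22 interferon-stimulated genes with an entry, 14 hold the motif, beside 3.44% of all promoters.

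Other genes high in vehicle 3 fell with the interferon genes. Ly6a (Sca-1), at 64.4 and 333 CPM in vehicle 2 and 3, stood at 46.5, 4.08 and 9.34 CPM in treated libraries and at 11.1 CPM in vehicle 1 (−3.34, edgeR adjusted p = 0.00539, and −2.80, adjusted p = 0.163, with all libraries). The chemokine Ccl12 fell from 44.2 and 169 CPM to 10.2, 4.35 and 2.47 CPM with vehicle 1 at 5.57 CPM (−4.26, edgeR adjusted p = 0.0355, and −3.71, adjusted p = 0.21, with all libraries), and Ccl2, with the same order of libraries, was not called (edgeR adjusted p = 0.0563). Mmp13, collagenase 3, fell from 241 and 639 CPM to 72.0, 26.6 and 32.4 CPM with vehicle 1 at 47.8 CPM (−3.34, edgeR adjusted p = 0.0315, and −2.83, adjusted p = 0.208, with all libraries). Neutrophil markers moved with these genes. The 9 listed summed to 349, 636 and 3350 CPM in vehicle 1 to 3 and to 551, 285 and 284 CPM in treated libraries, mostly S100a8 and S100a9. The granule genes Ngp (23.9, 38.5 and 233 CPM in vehicle 1 to 3), Ltf (6.37, 11.3 and 64.5 CPM) and Camp (2.65, 2.48 and 27.0 CPM) were also highest in vehicle 3, Mpo was highest in vehicle 2 (18.5 CPM), and Ly6g, Retnlg and Elane stood at 0 to 1.35 CPM. Stromal markers summed to 91.8, 81.5 and 115 CPM in vehicle and to 180, 140 and 179 CPM in treated libraries, from Col1a1, Col1a2 and Sparc, with Lum at 0 to 0.265 CPM. Their part in the results was not tested.

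Genes of the integrated stress response mostly stood lower. Of 26 tested, 6 fell and 1 rose without vehicle 1 (median −0.59), and 0 were called with all libraries (median −0.38). For the lists of this paragraph, the shares of all genes were 2.65% lower and 2.00% higher without vehicle 1. Phgdh, Psat1 and Shmt2, of serine and glycine synthesis, Aars, a tRNA synthetase, Ddit3, the factor CHOP, and Trib3, a pseudokinase induced by CHOP, fell. Ddit3 stood at 84.9 and 134 CPM against 56.1, 35.0 and 33.5 CPM with vehicle 1 at 45.6 CPM (−1.40, edgeR adjusted p = 0.0200, and −1.09, adjusted p = 0.208, with all libraries). Psat1 stood at 85.4 and 124 CPM against 50.3, 25 and 32.7 CPM with vehicle 1 at 39.3 CPM (−1.54, edgeR adjusted p = 0.0145, and −1.21, adjusted p = 0.177, with all libraries), and 55.9% of the 3′ words of Phgdh occur in other genes. Atf3, an early stress factor, rose from 184 and 195 CPM to 290, 330 and 373 CPM with vehicle 1 at 280 CPM (0.80, edgeR adjusted p = 0.0268, and 0.59, adjusted p = 0.211, with all libraries). Gdf15 stood at 20.2 to 37.5 CPM in vehicle and 22.6 to 41.7 CPM in treated libraries. Of 19 unfolded protein response genes only Dnajc3, an endoplasmic reticulum chaperone, was called (0.67 higher, and 0.47 with all libraries), and of 23 hypoxia and glycolysis genes only Ldha, lactate dehydrogenase, was called (−0.72, and −0.56 with all libraries), in both cases without vehicle 1.

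Of 23 NF-kB and inflammatory genes, 3 rose without vehicle 1 and 0 were called by edgeR with all libraries, where 8 had an unadjusted p under 0.05. The medians were 0.47 and 0.43, beside 0.01 and 0 for all genes, and 18 of 23 fold changes were positive in both. Over all genes, the fold change was positive for 6144 of 12078 without vehicle 1 and for 5879 of 11779 with all libraries. For 4 of the 23 each treated library was above every vehicle library, where 6.00% of all genes tested were so placed. Rel, the NF-kB subunit c-Rel, stood at 46.4, 36.3 and 27.5 CPM in vehicle 1 to 3 and at 48.7, 64.4 and 108 CPM in treated libraries (1.21, edgeR adjusted p = 0.0204, and 1.01, adjusted p = 0.134, with all libraries). Ier3, an early response gene, stood at 302, 239 and 248 CPM against 404, 372 and 365 CPM (0.64, edgeR adjusted p = 0.0365, and 0.53, adjusted p = 0.177, with all libraries). Neither gene overlapped between groups with all 6 libraries. Cxcl16, a chemokine that also binds oxidized lipoprotein, stood at 483, 196 and 170 CPM against 379, 442 and 336 CPM, so vehicle 1 was the highest library (1.08, edgeR adjusted p = 0.00142, and 0.45, adjusted p = 0.445, with all libraries). Of 21 classical activation genes tested without vehicle 1, only Gbp2 rose (2.08, edgeR adjusted p = 0.0109, and 1.14, adjusted p = 0.298, with all libraries), and Il1b stood at 27.7 to 44.6 CPM against 38.9 to 65.3 CPM and was not called (edgeR adjusted p = 0.732). Without vehicle 1, F10 was called higher and Mmp13 lower among 21 complement, matrix and coagulation genes. Jund was called higher among 20 immediate early genes, and Pros1 higher and Dab2 lower among 15 scavenger and efferocytosis receptors. That comparison called 2.00% of all genes higher and 2.65% lower. Of 24 p53 targets (23 with all libraries) and 31 proteasome subunits tested, 0 were called by edgeR, DESeq2 or limma voom with sample weights, with or without vehicle 1. At an unadjusted p under 0.05 edgeR gave 0 of each list with all libraries, and 3 p53 targets and 1 proteasome subunit without vehicle 1.

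Among the largest rises without vehicle 1 outside these lists were Il4i1, Apol7c, Bex1, Rbp4, Ahrr and Ddhd1. Il4i1, a secreted amino acid oxidase induced by IL-4, stood at 20.1 and 14.1 CPM against 57.0, 167 and 135 CPM with vehicle 1 at 118 CPM (2.80, edgeR adjusted p = 0.0204, and 1.25, adjusted p = 0.444, with all libraries), and 76.5% of its 3′ words lie antisense to other genes. Ahrr, the repressor of the aryl hydrocarbon receptor, stood at 16.7, 11.5 and 6.20 CPM against 27.4, 40.8 and 48.6 CPM, apart in all 6 libraries (2.13, edgeR adjusted p = 0.0382, and 1.77, adjusted p = 0.176, with all libraries). Rbp4, a retinol carrier, stood at 3.83 and 1.49 CPM against 28.0, 15.5 and 11.5 CPM, and vehicle 1 at 23.9 CPM lay within the treated range (2.76, edgeR adjusted p = 0.0157, and 0.92, adjusted p = 0.609, with all libraries).

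The same lists were counted in a fit that keeps vehicle 1 but weights each library by its agreement with its group (limma voom with sample weights, chosen after seeing the data). Vehicle 1 received a weight of 0.404, vehicle 2 of 1.57 and vehicle 3 of 0.653, and 388 genes were called, of which 314 are among the 562. Since the weights reduce the part of vehicle 1, a likeness to the fit without it is partly built in. In that fit 11 of 23 sterol synthesis genes and 7 of 21 NRF2 targets were called higher, 16 of 26 cell cycle genes lower and 4 of 32 interferon-stimulated genes lower. Over all 11779 genes tested it called 216 higher and 172 lower. Its counts for most other lists are not reported here.

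The question of whether p53 loss alters the response was addressed by comparing the fold change in KO_M2 with that in WT_M2, which share no library. The response differed for 208 genes with all libraries, 127 with a higher and 81 with a lower log2 fold change in KO_M2 (1.77% of genes tested, 1.08% and 0.688%), and for 751 genes without vehicle 1 (6.22%, 385 or 3.19% higher and 366 or 3.03% lower). Malt1, the paracaspase of NF-kB signalling, stood at 18, 10.4 and 10.2 CPM in KO_M2 vehicle and 25.2, 26.9 and 54.4 CPM in treated libraries, and at 42.0, 25.9 and 14.2 CPM against 7.72, 5.63 and 9.17 CPM in WT_M2. The directions were opposite with no overlap in either genotype (log2 difference 3.34, edgeR adjusted p = 0.000137). Pgm2l1, a glucose-1,6-bisphosphate synthase, ran the other way, with 11.4, 29.3 and 22.8 against 9.87, 7.34 and 10.4 CPM in KO_M2 and 34.0, 23.8 and 32.6 against 112, 70.2 and 90.3 CPM in WT_M2 (−2.79, edgeR adjusted p = 6.64e-05). Slamf7, an immune receptor (2.53), and Hpgds, the prostaglandin D synthase (−1.55), were the next in each direction, and without vehicle 1 Cxcl16 (2.45) and Dmpk (−4.34) took their places beside Slamf7 and Pgm2l1.

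Of the 6 genes called in KO_M2, the response of Dab2 (−2.16, edgeR adjusted p = 0.00461), March1 (1.96, edgeR adjusted p = 0.00461) and Ctnnd2 (−3.78, edgeR adjusted p = 0.0434) differed between genotypes with all libraries. Their differences without vehicle 1 are not reported here. Dab2 stood at 402, 202 and 280 CPM in WT_M2 vehicle and 538, 508 and 358 CPM in WT_M2 treated libraries, and March1 at 43.1, 48.2 and 50.4 against 34.6, 27.9 and 27.0 CPM. For Hspa1a the difference was not called with all libraries (−1.02, edgeR adjusted p = 0.533): it stood at 5.38 to 6.68 CPM in WT_M2 vehicle and 92.3 to 223 CPM in WT_M2 treated libraries. Gclm and Srxn1 were not called either (edgeR adjusted p = 0.464 and 0.575), with Srxn1 at 290 to 483 and 580 to 680 CPM in WT_M2. Neutrophil markers summed to 4035, 587 and 458 CPM in WT_M2 vehicle 1 to 3, so 1 vehicle library was high in each genotype, and their part in the difference was not tested. Il1b, interleukin 1 beta, stood at 46.6 to 240 CPM in WT_M2 vehicle and 3.09 to 12.8 CPM in WT_M2 treated libraries, against the overlapping KO_M2 values above (4.498, edgeR adjusted p = 0.0237). Left out 1 at a time, the libraries moved the count between 46 and 751, the lowest without KO_M2 vehicle 2.

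**Figure D5:**
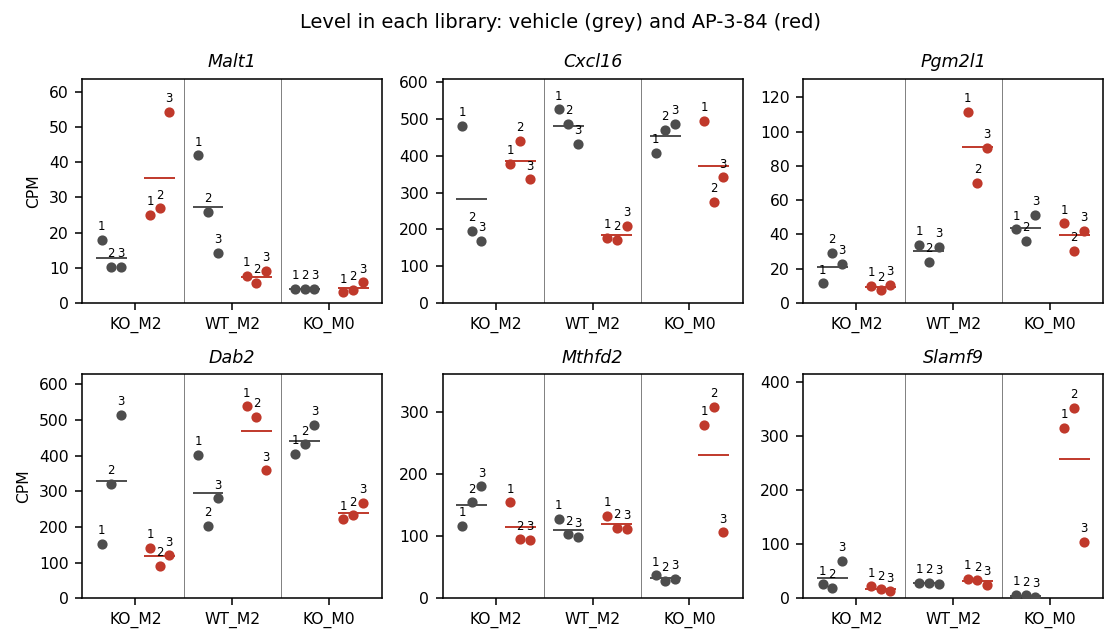
Level in CPM of 6 genes in vehicle (grey) and AP-3-84 (red) libraries of KO_M2, WT_M2 and KO_M0, with the replicate number over each point and a line at the group mean. Malt1 is higher in treated than in vehicle libraries of KO_M2 and lower in WT_M2, and Slamf9 stands at 104 to 353 CPM only in treated KO_M0.

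Whether polarization alters the response of p53 knockout cells was read from KO_M2 against KO_M0. The response differed for 1864 genes with all libraries (15.8%, 676 or 5.74% higher and 1188 or 10.1% lower in KO_M2) and for 2437 without vehicle 1 (20.2%, 8.40% higher and 11.8% lower). Slamf9, an orphan receptor of the SLAM family, stood at 19.8 to 69.0 CPM in KO_M2 vehicle and 12.6 to 22.3 CPM in treated libraries, against 5.76, 5.54 and 2.43 CPM in KO_M0 vehicle and 315, 353 and 104 CPM in KO_M0 treated libraries (−6.97, edgeR adjusted p = 1.26e-06). Cd300e, an activating receptor of myeloid cells, had the same form (−8.56, edgeR adjusted p = 1.26e-06). Mthfd2, of mitochondrial one-carbon metabolism, stood at 94.7 to 181 CPM in the 6 KO_M2 libraries and went from 28.0 to 37.2 CPM to 106 to 309 CPM in KO_M0 (−3.39 without vehicle 1, edgeR adjusted p = 1.21e-06). Tes, a focal adhesion protein, also had a lower fold change in KO_M2 (−2.71 without vehicle 1).

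In the other direction, Plxnd1, a semaphorin receptor, stood at 47.1 to 64.9 and 75.5 to 83.4 CPM in KO_M2 and at 31.1 to 39.7 and 11.9 to 22.2 CPM in KO_M0 (1.64, edgeR adjusted p = 0.000267), and Kctd12b had the same form (3.37). Without vehicle 1, Hvcn1, the voltage-gated proton channel (2.09), and Ctss (2.00) led this direction. Oasl1 went the opposite way in KO_M0, from 2.71 to 5.50 CPM to 21.2 to 67.8 CPM, and the difference with all libraries was −6.11 (edgeR adjusted p = 0.00333). For Hspa1a the difference between polarizations was not called with all libraries (−1.08, edgeR adjusted p = 0.396), with 0.308 to 1.89 CPM in KO_M0 vehicle and 11.8 to 48.7 CPM in KO_M0 treated libraries. The count lay between 843 and 2972 with 1 library left out, the lowest without KO_M0 treated 2 and the highest without KO_M0 treated 3.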

How the data were processed

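RNA was measured in 48 libraries, of which the 36 from bone marrow-derived macrophages were fitted together. The authors deposited 1 table of whole-number counts per gene and library. RSEM, Bowtie2 and DESeq2 are named in the submitters' processing notes without versions or roles, and the genome build is not given in the sources used here. Groups came from titles, since the genotype field differs from them.

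Counts were tested with edgeR 4.0.16 in R 4.3.3 (quasi-likelihood, robust, TMM scaling, filterByExpr by group, 1 mean per group), with Benjamini-Hochberg adjusted p under 0.05. In simulated counts without vehicle 1, 22% to 27.7% of log2 changes of 1 in size were called, and 69.4% to 73.5% of changes of 2. With all libraries the shares were 32.6% to 42% and 79.6%. No simulated library departed from its group, so the effect of vehicle 1 was not checked. The difference in response between populations was a contrast in the same fit. DESeq2 1.42.0, limma 3.58.1 (voom with sample weights, chosen after seeing the data), other scalings, filters and sets of libraries were alternatives. Total counts of 3203368 to 4195908 limit precision for genes of few counts.

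Genes were named by a rule: those called with all libraries, the 12 largest rises and falls without vehicle 1, up to 4 called members per list, genes in which vehicle 1 departed most, the 2 of lowest p each way per interaction, and fixed stress, genotype and polarization genes. Blvrb, Abcc1, Pgd, Tyrobp, H2-Aa, Cd74, Malt1 in KO_M2 and other list members outside the rule were named after their values were seen. Some genes that the rule or the lists hold are not reported here, and the counts include them. Members and lists were chosen with earlier results of these data known. Of the 19 gene lists, counts and medians are given without a list test. Words of 30 bases shared between the last 500 bases of GENCODE M21 transcripts mark genes with uncertain counts. Promoters are RefSeq windows of GRCm38.p6.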

Additional observations from a re-analysis of the deposited data

Results flagged for a closer look

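The response to AP-3-84 differed between p53 knockout and wild-type M2 macrophages by an interaction test (edgeR) for 208 genes, and for 751 genes without KO_M2 vehicle 1. With all libraries the log2 difference in response was 3.34 for Malt1, 2.53 for Slamf7, −2.79 for Pgm2l1 and −1.55 for Hpgds. Without vehicle 1 it was 2.45 for Cxcl16, 3.04 for Slamf7, −3.09 for Pgm2l1 and −4.34 for Dmpk. Slamf7 stood at 122 to 312 CPM in KO_M2 vehicle and 253 to 382 CPM in treated libraries, and at 215 to 263 CPM and 53.4 to 84.8 CPM in WT_M2.

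The response of knockout cells differed between M2 and M0 for 1864 genes, and for 2437 without vehicle 1. With all libraries the log2 difference was 3.37 for Kctd12b, 1.64 for Plxnd1, −8.56 for Cd300e and −6.97 for Slamf9. Without vehicle 1 it was 2.00 for Ctss, 2.09 for Hvcn1, −3.39 for Mthfd2 and −2.71 for Tes. Cd300e stood at 0.272 to 5.46 CPM in the 6 KO_M2 libraries and at 24.9 to 97.2 CPM in treated KO_M0.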

How the results depend on the processing

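With all 6 libraries the count of 6 became 577 with no filter on low counts, 71 by DESeq2, 0 with KO_M2 libraries only, 1 with KO libraries only, 52 with all 48 libraries, 3 with no robust estimation and 388 by limma voom with sample weights, and leaving out 1 library gave 0 (without vehicle 2) to 562 (without vehicle 1). Without vehicle 1 the count of 562 became 1095 with no filter, 862 by DESeq2, 260 with KO libraries only, 1023 with all 48 libraries and 361 when a 2-fold change in either direction was also required, and leaving out a further library gave 22 (without vehicle 3) to 704 (without treated 1). Where 1 vehicle library remained it was assumed to vary like the other groups. For KO against WT, 208 became 757 with no filter, 356 by DESeq2, 437 with all 48 libraries and 1029 by voom, with 46 to 751 over left-out libraries. Without vehicle 1, 751 became 1168, 1189 and 1314 with no filter, all 48 libraries and voom, with 258 to 922. For M2 against M0, 1864 became 1114 with KO libraries only and 2824 by voom, with 843 to 2972, and without vehicle 1 the range was 1246 to 3375. The KO against WT vehicle count of 419 was 699 by DESeq2. The cause of these shifts was not tested. Total-count scaling gave 712 genes without vehicle 1, of which 161 were higher and 551 lower, and moved the median of all genes to −0.09. In KO against WT it gave 91 higher and 161 lower, and 232 and 703 without vehicle 1, with medians of −0.15 and −0.19. The replicate block changed the 6 calls to 1 and the 208 to 80. Same-numbered libraries correlated in their deviations at −0.331, −0.438 and −0.088 in KO_M2, 0.254, −0.149 and 0.273 in WT_M2 and −0.075, 0.046 and −0.117 in KO_M0. In no population were all 3 pairs above 0.1. The labels give these pairs only a shared number, and the correlations cannot show whether same-numbered libraries shared animals or cultures. Over the alternatives without vehicle 1, falls among cell cycle genes ranged from 0 to 24 and among interferon-stimulated genes from 0 to 26. Rises ranged from 1 to 12 among NRF2 targets and from 1 to 14 among sterol synthesis genes. These ranges include fits in which 1 vehicle library remained. Of the 94 named genes called without vehicle 1, 10 kept the call in all 15 alternatives (Blvrb, Ctss, Dab2, Dmpk, Hspa1a, Hvcn1, March1, Pgm2l1, Sc5d and Scd2), 84 lost it without vehicle 3, and 0 reversed.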

Other observations

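The genes of this paragraph were chosen after their values were seen. Cyp1b1, a cytochrome P450 enzyme, stood at 14.3, 10.4 and 7.19 CPM in vehicle and at 45.2, 35.9 and 30.5 CPM in treated libraries, and was not called (edgeR adjusted p = 0.209, and 0.0781 without vehicle 1). Vaultrc5, a vault RNA, stood at 1.06, 1.58 and 0.744 CPM against 7.01, 9.24 and 8.24 CPM (edgeR adjusted p = 0.112, and 0.0426 without vehicle 1). Il21r, the interleukin 21 receptor, stood at 32.6, 29.7 and 37.2 CPM against 72.0, 60.6 and 47.5 CPM (0.84, edgeR adjusted p = 0.0194 without vehicle 1, and 0.85, adjusted p = 0.0586, with it). Notch1 (0.96) and Gadd45b (0.91) were also called without vehicle 1 and did not overlap between groups. With all libraries neither was called (0.87 and 0.78, edgeR adjusted p = 0.171 and 0.137).

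In WT_M2, vehicle 1 held 4035 CPM of neutrophil markers against 587 and 458 CPM in the other WT_M2 vehicle libraries, as KO_M2 vehicle 3 held 3350 CPM against 349 and 636 CPM. Oasl1 stood at 42.6 CPM in WT_M2 vehicle 1 and at 6.94 and 0.95 CPM in vehicle 2 and 3.

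Single libraries were near 0 for Gm4070 and Gm4737. Gm4070 stood at 93.4, 0 and 143 CPM in vehicle and 122, 120 and 1.10 CPM in treated libraries, so vehicle 2 and treated 3 were the low ones. Gm4737 stood at 0, 18.7 and 23.8 CPM in vehicle and 13.1, 12.5 and 20.9 CPM in treated libraries, and vehicle 1 was the low one. At their 3′ ends 94.4% and 90.9% of words occur in other genes.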
